A study of Mus musculus with 3 samples.

Results

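The cadherin genes *Cdh2*, *Cdh3*, *Cdh4*, *Cdh6*, *Cdh7*, *Cdh8*, *Cdh10*, *Cdh11*, *Cdh13* and *Cdh20* were examined in bulk RNA-Seq of the E10.5 mouse maxillary process. They are 10 of the 55401 gene identifiers in the count tables, a fixed list of cadherins matched by name in the GENCODE M21 annotation. The list leaves out the epithelial *Cdh1* and the endothelial *Cdh5*, and it is not all the rest, since *Cdh24* and other cadherins are outside it too. Among them, 4 genes were abundant and held 97.9% ± 1.09 (SD, n = 3) of the summed level per exonic length: *Cdh11*, *Cdh3*, *Cdh2* and *Cdh6*. The other 6 genes were found at a mean of 8.33 to 91.7 counts, and *Cdh20*, *Cdh8* and *Cdh7* differed 8.78-fold to 9.22-fold between libraries of the same genotype.

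The libraries form 1 group of 3 replicates, called OE here and numbered in the order of their records. Each came from dissected maxillary processes of embryos labelled Wnt1cre; Rosa26Dlx2/-. In this cross the Cre recombinase, driven by the Wnt1 promoter, switches on a Flag-tagged *Dlx2* transgene placed behind a stop cassette in the Rosa26 locus, so that the transgene is turned on in neural crest-derived cells and not in the epithelium, endothelium or blood of the same tissue piece. The RNA samples are described as independent, but the number of embryos behind each is not given in the sources used here. No wild-type library was used here, and no value below is a difference between genotypes, and every comparison is between genes within the OE libraries or between the OE libraries.

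Cadherins are calcium-dependent adhesion molecules that bind like molecules on neighbouring cells. The cytoplasmic tail of a classical cadherin binds beta-catenin or plakoglobin and p120-catenin, and alpha-catenin links this complex to actin. *Cdh2* (N-cadherin), *Cdh3* (P-cadherin) and *Cdh4* (R-cadherin) are type I cadherins. *Cdh6*, *Cdh7*, *Cdh8*, *Cdh10*, *Cdh11* and *Cdh20* are type II cadherins, many of which are known from neural crest derivatives and from neurons. *Cdh13* (T-cadherin) has no classical tail and is held in the membrane by a lipid anchor. In the face *Cdh2* and *Cdh11* are known from mesenchyme, whereas *Cdh3* is known chiefly from epithelia, so the usual heading of mesenchymal and neural cadherins describes *Cdh3* less well than the others.

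Because close relatives can share reads, the coding sequences were compared first. The most alike pair was *Cdh6* and *Cdh10*, with 70.4% identity over 2361 aligned coding bases, followed by *Cdh8* and *Cdh11* with 66.7% and *Cdh2* and *Cdh4* with 65.6%. The least alike pair was *Cdh8* and *Cdh13* with 44.4%. The 60-base coding window in which the 6 type II genes were most alike is printed here to show how far even their closest stretch differs. Each line gives the coding strand from 5′ to 3′ on GRCm38 (mm10), taken from the GENCODE M21 transcripts, with coding bases counted from 1 at the start codon. Capitals mark the bases that differ from *Cdh11*.
*Cdh11* (coding bases 523 to 582, chr8:102670114-102673812, minus strand): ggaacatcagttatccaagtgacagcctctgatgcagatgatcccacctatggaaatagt
*Cdh6* (coding bases 523 to 582, chr15:13060169-13064280, minus strand): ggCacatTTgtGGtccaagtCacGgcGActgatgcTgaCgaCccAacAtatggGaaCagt
*Cdh20* (coding bases 541 to 600, chr1:104941326-104942156, plus strand): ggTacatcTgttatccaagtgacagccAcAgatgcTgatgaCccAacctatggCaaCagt
*Cdh10* (coding bases 526 to 585, chr15:18964279-18966015, plus strand): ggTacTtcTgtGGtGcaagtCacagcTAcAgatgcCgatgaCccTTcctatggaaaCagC
*Cdh7* (coding bases 505 to 564, chr1:110049111-110052907, plus strand): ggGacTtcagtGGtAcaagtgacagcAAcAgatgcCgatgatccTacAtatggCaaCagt
*Cdh8* (coding bases 547 to 606, chr8:99230464-99279407, minus strand): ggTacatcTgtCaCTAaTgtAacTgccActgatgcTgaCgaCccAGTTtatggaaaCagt
The window crosses an exon junction in each of the 6 genes, so the coordinates enclose an intron. In it 35 of the 60 positions were identical in all 6 genes, and the least different pair still differed at 9 positions. Of the differences from *Cdh11*, *Cdh20* had 9, *Cdh7* 13, *Cdh6* and *Cdh10* 16 each and *Cdh8* 18.

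No 50-base stretch of any of the 10 genes occurred in another of the 10, and for *Cdh2*, *Cdh3*, *Cdh4*, *Cdh7* and *Cdh8* none occurred in any other annotated gene. *Cdh11* was the exception of weight. Of its 8762 stretches of 50 bases, 181 (2.07%) were shared with 8 loci that GENCODE M21 annotates as pseudogenes, among them *2610005L07Rik*, *6820431F20Rik*, *Gm10557* and *Gm21811*. These 8 loci had summed levels of 64.1, 54.2 and 37.4 CPM (counts scaled to a library of 1000000) in replicates 1, 2 and 3, equal to 25.3%, 23.4% and 33.4% of the CPM of *Cdh11*. Rows naming no gene, which include reads aligned at more than 1 place (3.08%, 4.77% and 5.19% of all reads counted), were left out. The *Cdh11* count can therefore lack reads that fit a copy equally well. The counts of the 8 loci do not measure how many reads were shared. For *Cdh6*, *Cdh10*, *Cdh13* and *Cdh20* the shared stretches were 0.278% of the gene or less. *Cdh8* alone overlapped an exon of another gene, by 23 bases with *Gm15679*.

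The libraries held 36544554, 35351031 and 40057435 counts on genes. *Dlx2* had 9089, 7150 and 6890 counts in replicates 1, 2 and 3 (235, 201 and 183 CPM), with no library of another genotype to set beside them. The mesenchyme markers that define the labelled tissue (11 genes, among them *Prrx1*, *Twist1* and *Pdgfra*) summed to 1958, 2055 and 2175 CPM. The libraries nevertheless stood apart in what else they held. The 12 neuron markers summed to 399, 28.6 and 39.6 CPM and each was highest in replicate 1. The 8 eye and forebrain markers summed to 33.6, 170 and 159 CPM and each was lowest in replicate 1, while the 8 pigment markers summed to 6.84, 38.7 and 164 CPM. *S100b* of the glia markers and *Mlana* of the pigment markers had 3 counts or fewer in every library. *Xist* was at 671, 0.309 and 0.557 CPM and 4 genes of the Y chromosome summed to 0, 5197 and 4106 counts, so replicate 1 also differed from the other libraries in these sex-linked transcripts. Long genes were lower in replicate 3: those with over 8000 exonic bases had a median log2 CPM 0.56 lower than in the other libraries, against 0.64 higher for those with 2000 or fewer. All 10 cadherins were longer than the median of the genes tested, with a median of 8485 exonic bases against 3871.

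Levels are given as CPM after TMM scaling, and, between genes, as CPM per 1000 exonic bases (RPKM). Whether the libraries differed beyond sampling noise was asked for each gene by a chi-square test of its 3 counts, adjusted by the Benjamini-Hochberg method over the 17115 genes averaging 10 counts or more. Of these genes, 81.5% were beyond sampling noise, and 7 of the 9 cadherins tested were. Such a test compares these libraries and says nothing of a condition. The usual spread is wide as well, with a median highest-to-lowest ratio of 1.67 over all genes tested. In bulk tissue, fewer cells of a type and less RNA per cell cannot be told apart.

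Among the type I genes, *Cdh2* (ENSMUSG00000024304, chr18:16588877-16809246, minus strand) is the N-cadherin of neural tissue and mesenchyme. It had 3197, 2378 and 1802 counts, or 82.8, 66.8 and 47.8 CPM, in replicates 1, 2 and 3, a mean of 65.8 ± 17.5 CPM (SD, n = 3). Replicate 1 was highest and replicate 3 lowest, 1.73-fold apart, close to the median ratio of all genes. The difference exceeded sampling noise (chi-square 355, adjusted p = 5.54e-77).

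*Cdh3* (ENSMUSG00000061048, chr8:106510891-106557297, plus strand), known from epidermis and other epithelia, had 2362, 1741 and 1474 counts, or 61.2, 48.9 and 39.1 CPM (49.7 ± 11.1). Its libraries took the same order as those of *Cdh2* and were 1.56-fold apart (chi-square 187, adjusted p = 8.51e-41). The 11 epithelium markers summed to 460, 302 and 299 CPM, with 7 highest in replicate 1 and 6 lowest in replicate 3. *Cdh1*, the main epithelial cadherin, was at 48.1, 32.5 and 13.4 CPM. The ratio of *Cdh3* to it in RPKM was 1.33, 1.57 and 3.05. *Cldn6*, a tight junction gene of the marker list, was at 70.4, 52.8 and 38.7 CPM, with the highest and lowest libraries of *Cdh3*. By contrast, 4 of the 11 markers, *Krt5*, *Krt14*, *Krt15* and *Krt18*, were highest in replicate 3, the lowest library of *Cdh3*. *Krt18* was at 86.7, 65.5 and 108 CPM. What the epithelial share adds to the *Cdh3* level was not tested.

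*Cdh4* (ENSMUSG00000000305, chr2:179442431-179899373, plus strand), the R-cadherin first known from retina, was much lower. It had 73, 108 and 94 counts, or 1.89, 3.03 and 2.50 CPM. Replicate 2 was highest and replicate 1 lowest, with a ratio of 1.60 (95% interval 1.18 to 2.19). The counts differed beyond sampling noise (chi-square 9.87, adjusted p = 0.00954), but the call was lost without replicate 1 (adjusted p = 0.205) and without replicate 2 (adjusted p = 0.0940).

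*Cdh11* (ENSMUSG00000031673, chr8:102632095-102785642, minus strand), the type II cadherin of mesenchyme and of osteoblasts, had the most counts of the 10 genes: 9771, 8244 and 4225, or 253, 232 and 112 CPM (199 ± 76.0). Replicates 1 and 2 were close and replicate 3 stood 2.26-fold below the highest (chi-square 2189, the largest of the 9 cadherins tested). The mesenchyme markers were mixed: 6 of the 11 were highest in replicate 3, and 3, *Prrx1* (629, 582 and 419 CPM), *Pdgfra* and *Tfap2a*, were lowest there. Their median log2 difference of replicate 3 from the other libraries was 0.44, and 0.16 with length and GC content taken into account as described next. The part of mesenchyme in the *Cdh11* difference was not tested. When a smooth curve in exonic length and GC content was subtracted from each library (below, the length and GC trend), *Cdh11* was at 208, 215 and 147 CPM, and the ratio was 1.46. The 8 pseudogene loci that share sequence with it were also lowest in replicate 3 as a sum.

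*Cdh6* (ENSMUSG00000039385, chr15:13028701-13173675, minus strand), known from premigratory neural crest and kidney, had 937, 799 and 541 counts, or 24.3, 22.4 and 14.4 CPM (20.4 ± 5.28). Its highest and lowest libraries were 1.69-fold apart (chi-square 103, adjusted p = 1.02e-22). The test rested on replicate 3, because without that library the adjusted p was 0.172. With the length and GC trend removed the values were 19.4, 20.6 and 19.6 CPM, a ratio of 1.06. *Cdh6* was thus the most even of the 10 genes on that scale.

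**Figure D1:**
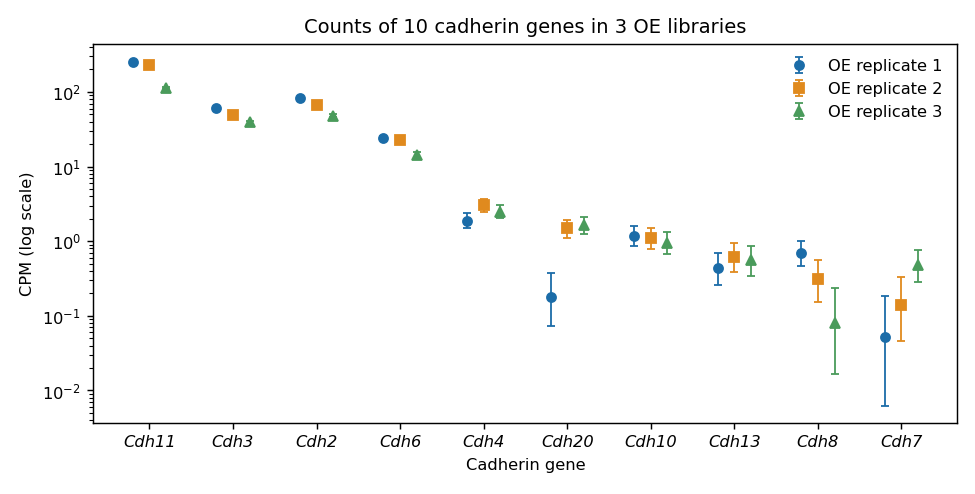
CPM (log scale) of the 10 cadherin genes in OE replicates 1, 2 and 3, with bars giving the exact 95% Poisson interval of each count. The 4 abundant genes are lowest in replicate 3 and their intervals are narrow, whereas *Cdh20* sits low in replicate 1, *Cdh8* is highest in replicate 1 (0.700 CPM) and lowest in replicate 3 (0.0796 CPM), and *Cdh7* is highest in replicate 3.

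The remaining type II genes were rare. *Cdh10* (ENSMUSG00000022321, chr15:18818947-19014236, plus strand), known from brain, had 46, 39 and 36 counts, or 1.19, 1.10 and 0.956 CPM. These counts were within sampling noise (chi-square 0.993, adjusted p = 0.631), and the ratio of replicate 1 to replicate 3 was 1.25 with a 95% interval of 0.789 to 1.99. A difference smaller than that interval could not be seen at this depth.

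*Cdh20* (ENSMUSG00000050840, chr1:104768529-104995481, plus strand), known from neural tube and early eye and brain, had 7, 53 and 62 counts, or 0.181, 1.49 and 1.65 CPM. Replicates 2 and 3 did not differ beyond counting error (ratio 1.11, interval 0.754 to 1.63), and replicate 1 was below both: the ratio of replicate 3 to replicate 1 was 9.07 (4.15 to 23.5) and that of replicate 2 to replicate 1 was 8.21 (3.72 to 21.4). The test over all 3 libraries passed (chi-square 45.1, adjusted p = 3.25e-10) and did not pass without replicate 1 (adjusted p = 0.642). The eye and forebrain markers had the same shape, with 8 of 8 lowest in replicate 1. One of them, *Six6*, a regulator of eye and pituitary development, was at 3.89, 28.3 and 29.9 CPM and had the profile nearest to *Cdh20* among 11276 protein-coding genes averaging 100 counts or more. Its distance was 0.0925, measured as the Euclidean distance of log2 CPM centred over the 3 libraries. Next came *mt-Atp8* (0.331), a mitochondrial gene, and *Emx2* (0.390), a forebrain regulator, and 10 genes lay within 0.5. With 3 libraries such nearness describes a shape only, and whether the same cells account for *Cdh20* and these markers was not tested.

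*Cdh8* (ENSMUSG00000036510, chr8:99024471-99416471, minus strand), known from neurons, had 27, 11 and 3 counts, or 0.700, 0.309 and 0.0796 CPM. Replicate 1, the lowest library for *Cdh20*, was the highest for *Cdh8*. The ratio of replicate 1 to replicate 3 was 8.78 (2.7 to 45.2) and that of replicate 1 to replicate 2 was 2.26 (1.09 to 5.06), and the test passed (chi-square 20.5, adjusted p = 5.72e-05). Without replicate 1 the mean was 0.189 CPM instead of 0.363 and the gene fell under the minimum count of the test. The 12 neuron markers were also highest in replicate 1, and 9 of them were lowest in replicate 2 and 3 in replicate 3. The latter 3, lowest in the same library as *Cdh8*, were *Isl1* (37.0, 11.2 and 5.31 CPM), *Nefm* and *Nefl*, a regulator of sensory and motor neurons and the neurofilament subunits. Of the 9 glia markers, 6 were highest in replicate 1 and their sum was 125, 57.9 and 84.1 CPM, again with replicate 2 lowest. The nearest profiles were those of *Sema3e* (distance 0.104; 7.88, 3.54 and 1.41 CPM) and *Unc5c* (0.116), a secreted guidance cue and a netrin receptor, and of *Clic6* (0.107). In all 84 genes lay within 0.5. With counts of 27, 11 and 3 behind it, the shape of *Cdh8* is known only loosely. The part of nerve in the *Cdh8* level was not tested.

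*Cdh7* (ENSMUSG00000026312, chr1:109982431-110140157, plus strand), known from migrating neural crest, had 2, 5 and 18 counts. The mean of 8.33 was under the minimum for the main test. Its levels were 0.0518, 0.140 and 0.478 CPM, with 95% intervals of 0.00628 to 0.187, 0.0456 to 0.328 and 0.283 to 0.755. The ratio of replicate 3 to replicate 1 was 9.22 (2.21 to 81.9) and that of replicate 3 to replicate 2 was 3.40 (1.22 to 11.7). When the 28442 genes with at least 1 count were tested, its adjusted p was 0.000481. Without replicate 3 the mean was 0.0991 CPM instead of 0.223. Of the 8 pigment markers, 7 were highest in replicate 3 and 7 lowest in replicate 1. The 8 muscle markers were mixed: 5 were highest in replicate 3 and 3 in replicate 1, and their sum (34.3, 33.3 and 72.7 CPM) was carried by *Des*, desmin, at 20.6, 22.2 and 58.2 CPM. The part of these cells in the *Cdh7* level was not tested.

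*Cdh13* (ENSMUSG00000031841, chr8:118283733-119324921, plus strand), the lipid-anchored cadherin, spans 1041189 bases of genome, the longest of the 10. It had 17, 22 and 21 counts, or 0.440, 0.618 and 0.557 CPM, and the libraries were within sampling noise (chi-square 1.14, adjusted p = 0.591). The ratio of replicate 2 to replicate 1 was 1.40, with an interval of 0.712 to 2.81. A count of 3, used here as a floor, equals 0.0777, 0.0843 and 0.0796 CPM in replicates 1, 2 and 3. *Cdh13* and *Cdh10* lay above this floor in every library, *Cdh8* lay on it in replicate 3 and *Cdh7* below it in replicate 1. The upper end of the exact 95% interval of a count of 0 is higher, at 0.0956, 0.104 and 0.0979 CPM.

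**Figure D2:**
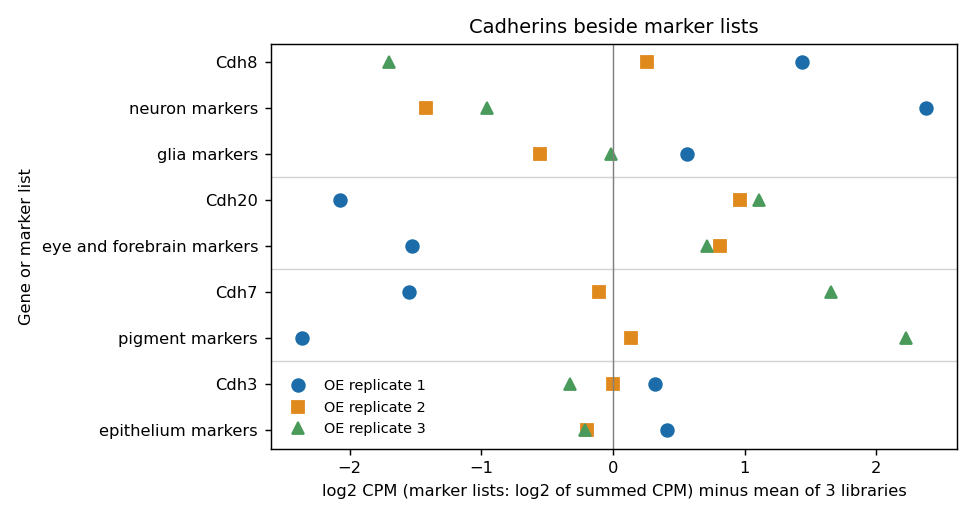
log2 CPM of *Cdh8*, *Cdh20*, *Cdh7* and *Cdh3*, each minus its mean over the 3 OE libraries, above the marker list set beside it (log2 of the summed CPM of the list, centred the same way). The pairs were chosen after the values were seen: *Cdh20* shares its low replicate 1 with the eye and forebrain markers, *Cdh7* shares its highest and lowest libraries with the pigment markers, and *Cdh8* shares its highest library with the summed neuron markers, whose lowest is replicate 2.

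Ordered by mean RPKM, the 10 genes ran *Cdh11*, *Cdh3*, *Cdh2*, *Cdh6*, *Cdh4*, *Cdh20*, *Cdh10*, *Cdh13*, *Cdh8* and *Cdh7*. *Cdh11* was at 28.4, 26.0 and 12.6 RPKM (22.3 ± 8.53), *Cdh3* at 14.0, 11.2 and 8.93 (11.3 ± 2.52), *Cdh2* at 10.3, 8.28 and 5.93 (8.16 ± 2.17) and *Cdh6* at 2.69, 2.49 and 1.59 (2.26 ± 0.585). Below these lay a gap: *Cdh4* was at 0.341 ± 0.0788 RPKM, and *Cdh7*, at the other end, at 0.0223 ± 0.0224. Each of the upper neighbours kept its order in every library. *Cdh11* exceeded *Cdh3* by a log2 ratio of 0.91 ± 0.37 (SD over libraries), *Cdh3* exceeded *Cdh2* by 0.49 ± 0.09, *Cdh2* exceeded *Cdh6* by 1.86 ± 0.11 and *Cdh6* exceeded *Cdh4* by 2.72 ± 0.59. The exact paired permutation test (two-sided) gave p = 0.25 for each of these pairs, the smallest that 3 libraries allow.

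The gap between *Cdh11* and *Cdh3* and the order of *Cdh3* and *Cdh2* depended on the length used. The log2 ratio of *Cdh11* to *Cdh3* was 1.98 over coding bases and 1.57 over the longest transcript. Every RPKM here is tied to the union of exons, and over coding bases *Cdh11* was at 83.3, *Cdh6* at 8.59, *Cdh4* at 0.841, *Cdh10* at 0.457 and *Cdh13* at 0.251 RPKM. On that scale *Cdh2* was at 24.2 and *Cdh3* at 20.2 RPKM, and over the longest transcript *Cdh2*, at 13.6 RPKM, again exceeded *Cdh3*. Among the rare genes *Cdh10* exceeded *Cdh13* in every library (log2 ratio 1.17 ± 0.37). The neighbours *Cdh4* and *Cdh20* (0.81 ± 1.5), *Cdh20* and *Cdh10* (0.83 ± 1.93), *Cdh13* and *Cdh8* (0.51 ± 1.74) and *Cdh8* and *Cdh7* (1.14 ± 3.19) did not differ beyond their spread, and each kept its order in 2 of 3 libraries.

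**Figure D3:**
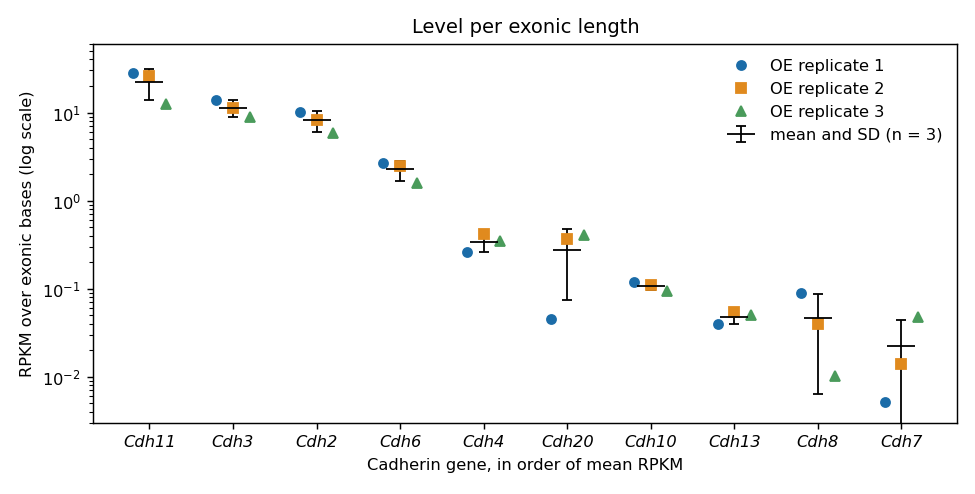
RPKM (log scale) of the 10 cadherin genes, ordered by mean, with points for OE replicates 1, 2 and 3 and a bar for the mean and SD (n = 3). *Cdh11*, *Cdh3*, *Cdh2* and *Cdh6* stand above the other 6 genes in each library. The SD of *Cdh7* exceeds its mean, so its lower bar runs off the log axis.

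As shares of the summed RPKM of the 10 genes, *Cdh11* held 48.7% ± 5.89 (50.9%, 53.1% and 42.0% in replicates 1, 2 and 3), *Cdh3* 25.8% ± 3.56, *Cdh2* 18.4% ± 1.42 and *Cdh6* 5.07% ± 0.247. Over coding bases *Cdh11* held 59.1% ± 5.51 and *Cdh3* 15.0% ± 2.54. The mesenchymal pair *Cdh2* and *Cdh11* held 67.0% ± 4.57. The ratio of *Cdh11* to *Cdh2* was 2.77, 3.14 and 2.12, and that of *Cdh11* to *Cdh6* ran from 7.91 in replicate 3 to 10.6 in replicate 1. The summed level itself was 55.9, 48.9 and 30.0 RPKM. The 6 rare genes together held 1.00%, 2.06% and 3.19%.

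Of the 9 cadherins tested, 6 were highest in replicate 1 and lowest in replicate 3: *Cdh2*, *Cdh3*, *Cdh6*, *Cdh8*, *Cdh10* and *Cdh11*. Over all genes tested 39.6% were highest in replicate 1, 45.6% were lowest in replicate 3 and 34% were both. The median log2 CPM of the cadherins in replicate 3 was 0.48 below the mean of the other libraries, where all genes tested had a median of −0.03. With the length and GC trend removed the median of the cadherins was −0.02, 3 of the 9 were highest in replicate 1 (34.7% of all genes) and 4 lowest in replicate 3 (41.6%). Single genes moved unequally under this change. In replicate 3 *Cdh11* went from 1.11 to 0.52 below the other libraries on the log2 scale, *Cdh2* from 0.64 to 0.28, *Cdh6* from 0.70 to 0.02 and *Cdh3* from 0.48 to 0.51. *Cdh20* in replicate 1 stayed low, at −2.78 before and −2.83 after. *Cdh8* in replicate 3 went from −1.97 to −1.34. Other genes widened or turned: *Cdh10* in replicate 3 went from −0.25 to 0.56, and the highest-to-lowest ratio went from 1.40 to 2.10 for *Cdh13* and from 9.22 to 16.2 for *Cdh7*. Between replicates the biological coefficient of variation had a median of 0.383 over the cadherins, against 0.339 over all genes tested, and it ran from 0.260 for *Cdh3* to 0.722 for *Cdh20*. Both medians hung on single libraries. When each library was left out, they ranged from 0.324 to 0.597 for the cadherins and from 0.209 to 0.444 over all genes.

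**Figure D4:**
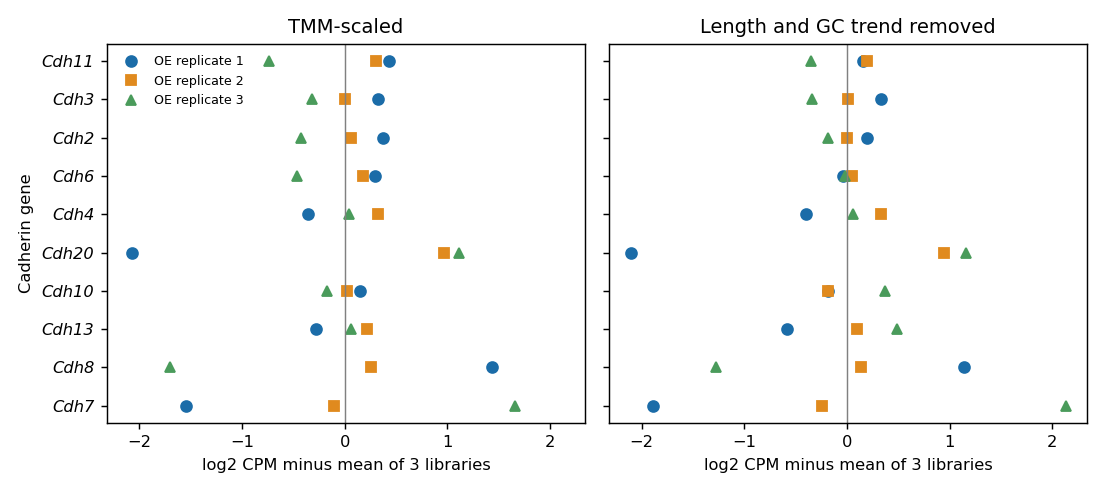
log2 CPM of each cadherin gene minus its mean over the 3 OE libraries, after TMM scaling (left) and with the length and GC trend also removed (right). *Cdh6* closes up on the right (ratio 1.06), *Cdh11* and *Cdh2* narrow, *Cdh10* and *Cdh13* widen, and *Cdh20*, *Cdh8* and *Cdh7* stay wide apart.

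Among the other cadherins of the annotation, 13 were listed, 7 averaged 10 counts or more and 6 of these were beyond sampling noise. *Cdh24*, a type II cadherin that binds catenins, was at 66.9, 84.4 and 145 CPM, and in replicate 3 it was higher than in the other libraries where *Cdh11* was lower. The ratio of *Cdh11* to *Cdh24* in RPKM was 1.48, 1.08 and 0.302, so their order turned in replicate 3. With the length and GC trend removed, the log2 difference of replicate 3 from the other libraries went from 0.95 to 0.49 for *Cdh24*. That of *Cdh11* went from −1.11 to −0.52. *Cdh5*, the endothelial cadherin, was at 77.7, 87.9 and 49.1 CPM, while the 8 endothelium markers summed to 284, 319 and 302. *Cdh19*, known from Schwann cell precursors and the neighbour of *Cdh7* on chromosome 1, was at 2.05, 0.927 and 0.292 CPM, highest in the library where *Cdh7* was lowest. *Cdh22* was at 0.259, 1.24 and 2.63 CPM, a highest-to-lowest ratio of 10.1 after TMM scaling, wider than that of any of the 10 cadherins. *Cdh12*, *Cdh16*, *Cdh17* and *Cdh18* had 3 counts or fewer in every library.

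Catenin levels varied widely, with a list median of 48.4 CPM against 1.79 CPM for the 10 cadherins. Of 9 catenin genes 8 were tested and 8 were beyond sampling noise, 6 of them highest in replicate 1 and 6 lowest in replicate 3. *Ctnnb1*, beta-catenin, was at 1331, 1263 and 829 CPM, and *Ctnna1*, the alpha-catenin of most tissues, at 384, 336 and 166 CPM. *Ctnna2*, the neuronal alpha-catenin, was at 6.81, 3.01 and 2.28 CPM, with replicate 1 highest as for *Cdh8*. *Ctnnd1*, the p120-catenin that stabilises cadherins at the surface, ran the other way, at 15.8, 16.9 and 28.9 CPM, as did its relative *Arvcf* at 81.2, 88.2 and 106. *Ctnna3* had a single count in replicate 2 and none in the others. The list's median in replicate 3 was 0.50 below the other libraries on the log2 scale.

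Of 10 junction partners, all 10 were beyond sampling noise, with 7 highest in replicate 1 and 7 lowest in replicate 3. *Vcl*, vinculin, which ties alpha-catenin to actin under tension, was at 42.9, 32.4 and 3.66 CPM. *Nectin2*, a partner adhesion molecule, was at 87.2, 97.1 and 130 CPM. Of 12 genes that process or modify cadherins, 11 were beyond sampling noise and 9 were lowest in replicate 3. *Adam10*, which sheds the outer part of N-cadherin, was at 110, 93.8 and 50.3 CPM, and *Furin*, which removes the cadherin prodomain, at 58.1, 54.1 and 41.9 CPM. *Pcsk5*, a related convertase, was within sampling noise (adjusted p = 0.262). Over all genes tested, 81.5% were beyond sampling noise, 39.6% were highest in replicate 1 and 45.6% lowest in replicate 3. With the length and GC trend removed, the median log2 difference of replicate 3 went from −0.60 to −0.09 for the junction partners, from −0.54 to −0.45 for the processing genes and from −0.50 to −0.44 for the catenins.

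On the genome, several of the 10 genes lie beside a relative. *Cdh8* and *Cdh11* are 3.22 Mb apart on chromosome 8 with 0 protein-coding genes between them, and their mean RPKM was 0.0469 and 22.3. *Cdh11* and *Cdh5* are 1.32 Mb apart, also with 0 between, and the mean of *Cdh5* was 17.0 RPKM. *Cdh9* and *Cdh10* on chromosome 15, with 0 between, had means of 0.104 and 0.108 RPKM, and the ratio of *Cdh10* to *Cdh9* was 1.35, 0.763 and 1.15 in replicates 1, 2 and 3. *Cdh3* and *Cdh1* lie 46.1 kb apart with 1 protein-coding gene between them, at 11.3 and 6.85 RPKM. *Cdh20* and *Cdh7* on chromosome 1 are 4.99 Mb apart with 20 genes between.

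The promoters of *Cdh20* and *Cdh8*, of the 10 genes the tested ones with the widest range between libraries, are shown because replicate 1 was lowest for *Cdh20* and highest for *Cdh8*. RefSeq start sites (GRCm38.p6) were held for 5 of the 10 genes, *Cdh6*, *Cdh7*, *Cdh8*, *Cdh10* and *Cdh20*, in 7 windows of 250 bases before the start. Capitals mark CpG dinucleotides, and each line reads 5′ to 3′ on the strand of the gene.
*Cdh20* (chr1:104768270-104768519, plus strand): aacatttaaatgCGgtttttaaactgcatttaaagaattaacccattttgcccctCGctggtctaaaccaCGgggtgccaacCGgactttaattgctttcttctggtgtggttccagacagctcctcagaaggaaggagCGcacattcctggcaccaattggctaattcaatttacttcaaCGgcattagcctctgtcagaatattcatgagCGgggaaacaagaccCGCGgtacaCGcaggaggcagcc
*Cdh8* (chr8:99416472-99416721, minus strand): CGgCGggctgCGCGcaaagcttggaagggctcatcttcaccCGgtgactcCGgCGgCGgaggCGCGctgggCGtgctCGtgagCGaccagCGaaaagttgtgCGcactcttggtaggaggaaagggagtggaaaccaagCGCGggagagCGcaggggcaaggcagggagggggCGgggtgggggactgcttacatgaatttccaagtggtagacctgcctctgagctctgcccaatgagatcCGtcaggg
The *Cdh8* window holds 20 CpG and the *Cdh20* window 10, where the median of 32851 promoter windows is 6. *Cdh6* holds 6 and *Cdh10* 2. The motif TAATTA, which reads the same on both strands and is the core that many homeodomain proteins bind, was found in 1 of the 3 *Cdh7* windows and in none of the other 4 windows. Of all promoter windows 4.84% hold it. A match is a string of letters and not a binding site, and its absence says only that these letters are not in the window.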

How the data were processed

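Bulk RNA-Seq of 3 libraries of 1 genotype was analysed. Per the labels, total RNA was extracted with Trizol and libraries were made with a poly-A based kit. The submitters' processing notes name FastQC, STAR 2.7.3a, HTSeq 0.12.4 and mm10. The authors deposited raw counts per gene, whole numbers without normalization. The strand setting and annotation release are not given in the sources used here, so reads of antisense partners cannot be told apart. Rows naming no gene were left out, and they held 14.2% to 16.4% of all reads counted. Identifiers were matched to GENCODE M21 (55141 of 55401).

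Counts were scaled by TMM (edgeR 4.0.16, R 4.3.3). Log2 values used a prior count of 2. The 3 counts of a gene were tested by chi-square against the scaled library sizes (2 degrees of freedom), with Benjamini-Hochberg adjustment over genes averaging 10 counts or more, and a call was an adjusted p under 0.05. Intervals of single values are exact Poisson and those of ratios exact binomial, both at 95%, and cover counting error only, since reads without molecular identifiers are not independent molecules. The length and GC trend was a smooth fit by mgcv 1.9.3. Coding sequences were aligned with MAFFT 7.526. The replicates are samples described as independent, and nothing ties them to single embryos. The chi-square p-values measure departure from counting noise among these samples and use no estimate of the spread between them. The procedure was tested on simulated data. Members, lists and tests were chosen with earlier results of these data known. The named genes were the 10 members, the genes of the listed groups, and the 3 genes nearest in profile to each of the 2 tested members with the widest range. Alternatives were other scalings (DESeq2 1.42.0 size factors, total counts, upper quartile), filters, gene lengths, the trend and leaving out each library. The 6 blood markers summed to 2132, 3990 and 4916 CPM in replicates 1, 2 and 3.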

Additional observations from a re-analysis of the deposited data

How the results depend on the processing

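Over 35 results, 260 alternative values were computed. Of these, 232 kept their side of the threshold, stayed within the replicate spread or, for counts of genes or pairs, stayed within a factor of 1.5. Another 24 moved, of which 19 were RPKM of single cadherins under another gene length, and 4 lost a call. Reversals were not scored. The level order was scored only by its number of pairs, so the turn of *Cdh3* and *Cdh2* under other lengths is not among the values that moved. The share of *Cdh2* and *Cdh11* (67.0%) was 76.9% over coding bases, 75.7% over the longest transcript and 75.6% over the transcript with the longest coding sequence, the last chosen after seeing the data. It ranged from 65.5% to 69.6% when each library was left out. The number of cadherins highest in replicate 1 (6) and lowest in replicate 3 (6) was 3 and 4 with the length and GC trend removed. The cadherins' median coefficient of variation (0.383) ranged from 0.324 to 0.597 when each library was left out, the highest without replicate 2, where *Cdh7* also entered. The median over all genes (0.339) was 0.317, 0.444 and 0.209 without replicates 1, 2 and 3. In the same way the number beyond sampling noise (7) ranged from 5 to 7, and the number of neighbour pairs with 1 order in all libraries used (5 of 9) from 6 to 7. Calls lost were those of *Cdh4*, *Cdh6* and *Cdh20* given above, and *Cdh8* could not be tested without replicate 1. The shares of *Cdh3* and *Cdh11* over coding bases were added after seeing the data. Over all genes the share beyond sampling noise was 71.2%, 77.7% and 48.8% without replicates 1, 2 and 3, 53.4% over the 28442 genes with at least 1 count and 82.5% over those with 10 in every library. The cause was not tested. Depth limits *Cdh7*, *Cdh8*, *Cdh13* and *Cdh20* in replicate 1, where intervals span a factor of more than 2. No paired analysis was possible because the labels give 1 group, so no replicate number is shared between groups; the permutation test of neighbouring genes pairs genes within a library.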
